A study of Mus musculus with 160 samples.

Results

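Nuclear hormone receptors were followed in single stromal cells of mouse bone marrow. The 38 receptor genes were taken by symbol from the deposited table, whose rows split into 23219 distinct gene symbols, and all 38 were found. They cover most of the family, and 10 other family receptors, among them the retinoic acid receptors, Pparg and the Nr4a receptors, were kept as a separate list. The cells came from C57BL/6J mice of 2 ages, 82 cells from young animals (9 weeks in the sample labels, 10 weeks in the protocol) and 78 from old animals (24 months, given as 2 years in the protocol). They had been sorted as positive for the leptin receptor and CD140a and negative for CD45, Ter119 and CD31, and the labels name no transgene, treatment or other allele. The labels name no animal, so each age is 1 sample, no test between ages was possible, and the cells of an age are not replicates of it.

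Values are FPKM, a level per transcript length and per sequencing yield of each cell. A cell is said to list a gene when its value is 1 FPKM or more. The number of reads per cell is unknown, and an exact 0 can be a failed estimate: Gapdh, a gene of nearly every cell, was at 0 in 91 of 160 cells. Shares of cells carry exact (Clopper-Pearson) 95% confidence intervals (CI), which cover counting error only. A young cell listed a median of 1164 named genes and an old cell 1243, with ranges of 136 to 2244 and 203 to 2862. Lepr reached 1 FPKM in 78 young and 71 old cells, and Cxcl12, the chemokine of the blood stem cell niche, in 82 and 77. Pdgfra, which encodes CD140a, was listed in 28 young and 30 old cells, so most cells sorted for it did not list its RNA. Ptprc, Pecam1 and Cdh5 were listed in no cell, and none of 6 liver and epithelial markers was. Hba-a1, a hemoglobin gene, was listed in 1 young and 1 old cell. Of 11 hematopoietic markers, S100a8 and S100a9 were each listed in 1 young and 1 old cell, and the other 9 in no cell. Xist RNA was listed in 54 old and 0 young cells and at least 1 of 4 Y-linked genes in 34 young and 0 old cells, and the protocol counts the captured wells of each age separately. Age, the sex-linked RNA and the capture therefore cannot be told apart in anything below.

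Nuclear receptors are transcription factors that bind DNA with zinc fingers and are switched by small lipid-soluble ligands such as steroids, thyroid hormone, vitamin D, oxysterols and fatty acids. Steroid receptors wait on heat shock chaperones and act mainly as homodimers, whereas the thyroid hormone, vitamin D, liver X and PPAR receptors bind DNA with a retinoid X receptor (RXR) as partner. In marrow stroma, glucocorticoid, vitamin D, estrogen and PPAR signals are known to act on the choice between fat and bone fates and on bone mass.

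Of the 38 receptors, 15 were listed in 5% or more of the cells of an age, 7 were listed in fewer cells, and 16 reached 1 FPKM in no cell. The 15 include Nr6a1, which was listed only through a row shared with 2 microRNA genes, and 14 receptors passed on rows of a single symbol. Among all symbols 28.9% passed the same 5% filter, against 39.5% of the receptors. Receptor RNA was sparse: the 15 were listed in a median of 11 of 160 cells, while all genes past the filter had a median of 15. The order by number of cells was Rora (58 cells), Esr1 (35), Thra (30), Nr3c1 (29), Nr2f2 (19), Nr2c2 (15), Nr1h3 (13), Nr6a1 and Ppard (11 each), Nr1d1 (10), Nr1d2, Nr1h2 and Nr2c1 (9 each), Vdr (7) and Nr2f6 (6). Rora stood first with 36.2% of all cells. Within each age, all neighbours in this order had overlapping intervals, so adjacent places are not resolved.

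**Figure D1:**
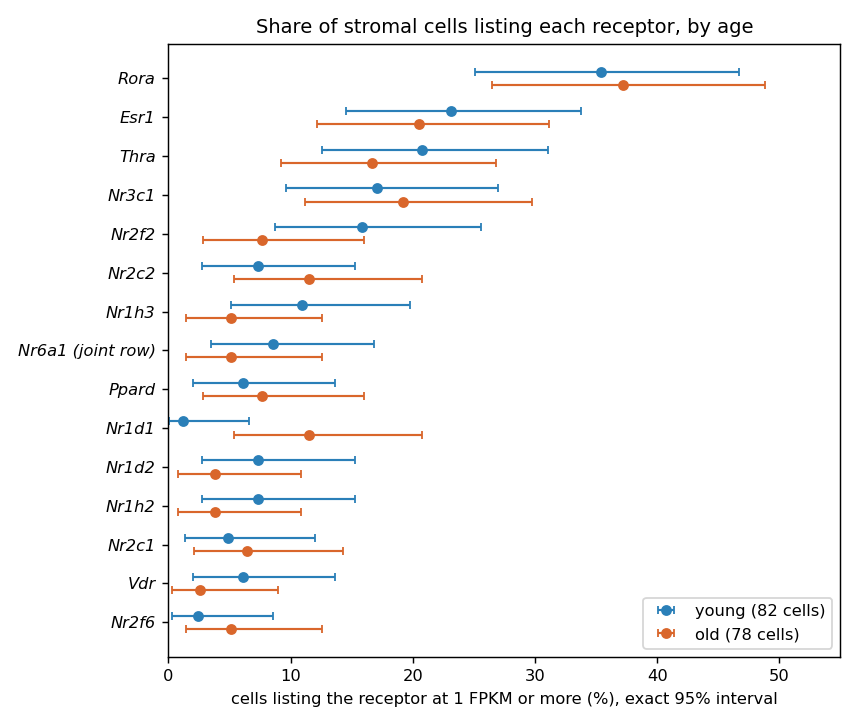
Share of cells (percent, x axis) that listed each of the 15 receptors (y axis) at 1 FPKM or more in 82 young (blue) and 78 old cells (orange), with exact 95% intervals as bars. The intervals of the ages overlapped for all 15 receptors, and Nr1d1 showed the widest gap, 1.22% against 11.5%.

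Estrogen and glucocorticoid receptors were the steroid receptors of these cells. Esr1, which encodes estrogen receptor alpha, was listed in 19 of 82 young cells (23.2%, CI 14.6 to 33.8) and 16 of 78 old cells (20.5%, CI 12.2 to 31.2). In the cells that listed it, Esr1 ran from 1.5 to 122 FPKM with a median of 8.56 in young cells, and from 1.16 to 55.3 with a median of 5.38 in old cells. The ranges overlapped over most of their length. Nr3c1, the glucocorticoid receptor, was listed in 14 young (17.1%, CI 9.66 to 27) and 15 old cells (19.2%, CI 11.2 to 29.7). Its FPKM in those cells ran from 3.03 to 39.8 with a median of 11.1 in young cells, and from 1.11 to 275 with a median of 4.52 in old cells, where 1 old cell held 42.0% of the FPKM summed over both ages. Nr3c2, the mineralocorticoid receptor, was listed in 5 cells, at 27.4 and 16.3 FPKM in 2 young cells and at 12.4, 7.76 and 1.21 in 3 old cells. Esr2, estrogen receptor beta, was above 0 in 1 old cell at 0.0204 FPKM, and Pgr, the progesterone receptor, was at 0 in all cells. Esr1 and Nr3c1 were listed together in 7 cells, so at this sensitivity most cells listing one did not list the other. At least 1 of the 5 steroid receptors was listed in 36.6% of young and 35.9% of old cells.

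Receptors that need an RXR partner were listed far more often than the RXRs. At least 1 of 10 such receptors (Thra, Thrb, Vdr, Nr1h2, Nr1h3, Nr1h4, Nr1i2, Nr1i3, Ppara and Ppard) was listed in 36 young (43.9%, CI 33 to 55.3) and 24 old cells (30.8%, CI 20.8 to 42.2). Rxra, Rxrb or Rxrg was listed in 2 young and 2 old cells. Rxra was at 6.57 and 2.19 FPKM in 2 young cells and at 2.96 and 2.26 in 2 old cells. Rxrb was listed at 10.3 FPKM in 1 of those old cells, and Rxrg was at 0 in all cells. Of 60 cells with a partner receptor, 1 also listed an RXR, and only 4 of all cells listed an RXR. The overlap that these shares alone would give was not computed. Counting any value above 0, 85 cells had a partner, 16 had an RXR and 10 had both. An RXR below the sensitivity of the assay cannot be told from an absent one.

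Thra, thyroid hormone receptor alpha, led the partner receptors, with 17 young (20.7%, CI 12.6 to 31.1) and 13 old cells (16.7%, CI 9.18 to 26.8). In listing cells it ran from 1.10 to 741 FPKM with a median of 9.51 in young cells, and from 1.03 to 67.5 with a median of 6.87 in old cells. Young cell 15 alone held 61.1% of the summed FPKM of Thra, and the next young value was 56.1. Thrb, the beta form, was listed in 1 old cell at 11.5 FPKM. Nr1h3, the oxysterol receptor LXR alpha, was listed in 9 young and 4 old cells, at medians of 6.85 and 27.4 FPKM. Nr1h2, the broadly expressed LXR beta, was listed in 6 young and 3 old cells, at medians of 4.47 and 1.85. Both LXRs were thus listed by few cells of either age. Ppard, a fatty acid receptor, was listed in 5 young cells at 159, 35.6, 24.4, 5.56 and 1.2 FPKM, and in 6 old cells at 30.5, 19.3, 7.21, 3.35, 3.20 and 1.07. Its highest cell was the only highest cell among the 15 receptors whose summed FPKM exceeded 3 times the median of all cells. Ppara was listed at 7.49 FPKM in 1 young cell. Vdr, the vitamin D receptor, was listed in 5 young cells at 113, 41.5, 3.79, 3.52 and 2.20 FPKM and in 2 old cells at 49.7 and 5.80. Nr1h4, the bile acid receptor FXR, and the drug-sensing receptors Nr1i2 and Nr1i3 were at 0 in all 160 cells.

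**Figure D2:**
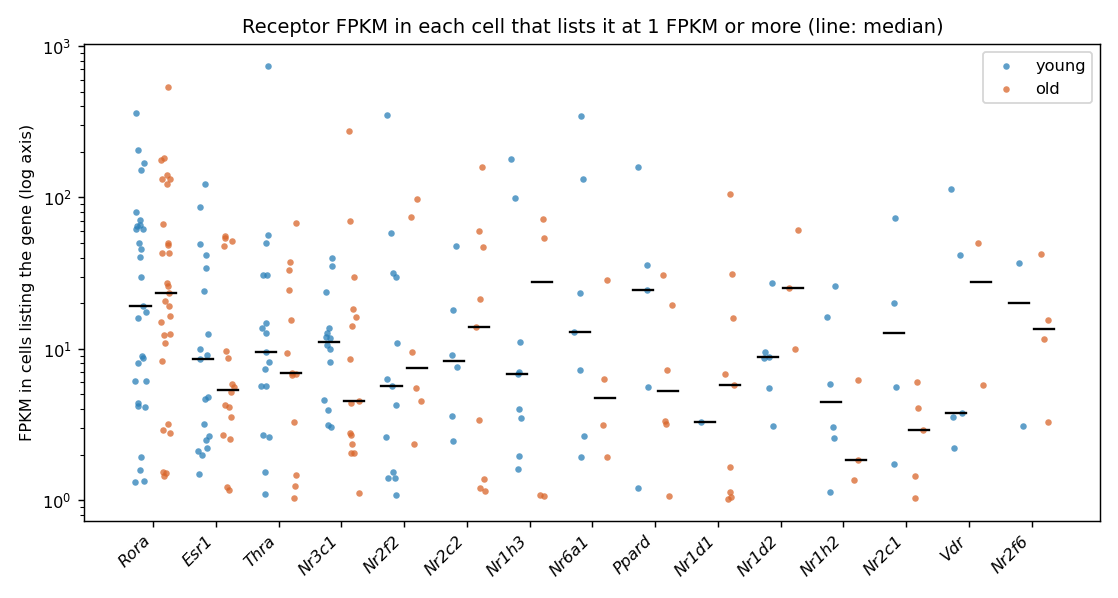
FPKM (y axis, log scale) of the 15 receptors (x axis, ordered by number of listing cells) in every cell that listed them at 1 FPKM or more, with young cells in blue, old cells in orange and black lines at the medians. Single high cells stand out for Thra (741 FPKM), Nr2f2 (350) and Nr6a1 (343) in young cells and Nr3c1 (275) in old cells, and the ages overlap for most receptors.

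The receptors of the circadian clock held both the most frequent member and the only one past a difference of 10 percentage points between the ages. That difference was Nr1d1, toward old cells, as it was for 4.45% of all genes past the 5% filter. In the clock, ROR proteins activate and REV-ERB proteins (Nr1d1, Nr1d2) repress through the same DNA element, and the bHLH factors of the core loop act at E-boxes. Rora was listed in 29 young (35.4%, CI 25.1 to 46.7) and 29 old cells (37.2%, CI 26.5 to 48.9). Its FPKM in those cells ran from 1.33 to 359 with a median of 19.2 in young cells, and from 1.44 to 538 with a median of 23.2 in old cells. The ages overlapped almost fully, and 1 cell held 15.6% of the sum, the smallest such share among the 15 receptors. Rora had 3 rows in the table, listed in 20, 31 and 14 cells, which were summed. Rorb was listed at 1.90 FPKM in 1 young cell.

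Nr1d1, which encodes REV-ERB alpha, was listed in 1 of 82 young cells (1.22%, CI 0.0309 to 6.61) and 9 of 78 old cells (11.5%, CI 5.41 to 20.8). The young cell had 3.27 FPKM, and the old cells had 105, 31.2, 16, 6.82, 5.76, 1.66, 1.14, 1.05 and 1.02. Of the 9 old values, 4 lay just above the limit of 1 FPKM. Counting any value above 0, Nr1d1 was in 10 young and 14 old cells, a difference of 5.75 points, at 5 FPKM the difference was 6.41 points, at 10 FPKM 3.85 points and with every cell scaled to the same sum 9.16 points, so in these cases it no longer reached 10. Nr1d2, REV-ERB beta, lay on the other side: its 6 young cells had 27.3, 9.54, 8.82, 8.74, 5.51 and 3.08 FPKM, and its 3 old cells 60.6, 25.3 and 9.91. The exons of Nr1d1 and Thra overlap on opposite strands in the GENCODE M21 annotation, and the sources used here do not say whether strand was kept, so their fragments may be shared. Thra was listed in the 1 young and in 3 of the 9 old cells that listed Nr1d1.

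Since clock receptors and clock factors act on shared promoter elements, the promoters of Nr1d1, its paralog Nr1d2 and the clock genes with the widest differences in each direction, Bhlhe41 and Per3, are shown. Each spans a gene start, mostly upstream of it, in RefSeq on GRCm38.p6, which is not the build of the FPKM table (mm9). They lie at chr11:98775328-98775627 (Nr1d1), chr14:18239057-18239356 (Nr1d2), chr6:145865371-145865670 (Bhlhe41) and chr4:151044616-151044915 (Per3), with Nr1d1, Nr1d2, Bhlhe41 and Per3 all on the minus strand. Capitals mark the E-box CACGTG, the receptor half-site AGGTCA and the D-box TTATGTAA, searched on both strands, and the D-box letters were added after the Per3 promoter had been read.
Nr1d1: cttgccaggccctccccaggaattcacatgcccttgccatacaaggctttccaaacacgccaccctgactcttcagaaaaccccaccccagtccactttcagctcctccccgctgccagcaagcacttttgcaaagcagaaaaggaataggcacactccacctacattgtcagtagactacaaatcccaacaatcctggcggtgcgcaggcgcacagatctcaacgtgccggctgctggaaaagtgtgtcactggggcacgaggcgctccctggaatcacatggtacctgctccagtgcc
Nr1d2: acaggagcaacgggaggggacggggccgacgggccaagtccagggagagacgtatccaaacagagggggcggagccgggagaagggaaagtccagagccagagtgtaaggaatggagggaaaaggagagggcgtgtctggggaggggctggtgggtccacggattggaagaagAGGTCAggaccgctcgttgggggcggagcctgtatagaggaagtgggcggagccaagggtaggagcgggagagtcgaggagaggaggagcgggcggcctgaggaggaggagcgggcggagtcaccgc
Bhlhe41: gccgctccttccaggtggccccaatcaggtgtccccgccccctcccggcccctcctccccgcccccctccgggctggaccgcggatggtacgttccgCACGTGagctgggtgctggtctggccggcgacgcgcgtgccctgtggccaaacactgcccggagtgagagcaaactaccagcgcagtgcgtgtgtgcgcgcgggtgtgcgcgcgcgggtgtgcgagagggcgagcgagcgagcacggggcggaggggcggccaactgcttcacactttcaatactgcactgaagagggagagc
Per3: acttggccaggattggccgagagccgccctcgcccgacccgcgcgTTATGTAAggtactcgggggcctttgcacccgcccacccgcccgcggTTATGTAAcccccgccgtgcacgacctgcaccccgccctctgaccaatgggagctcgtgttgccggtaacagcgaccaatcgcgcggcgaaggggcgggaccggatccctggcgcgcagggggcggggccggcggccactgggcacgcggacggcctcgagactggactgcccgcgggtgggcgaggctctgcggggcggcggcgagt
The Nr1d2 promoter held 1 half-site, the Bhlhe41 promoter 1 E-box and the Per3 promoter 2 D-boxes, while the Nr1d1 window held none of the 3 motifs. Among 32851 promoters of this length, 7.15% held the E-box, 16.3% the half-site and 0.938% the D-box. Of 49 promoters of the 34 receptors in the promoter table, 3 held the E-box and 8 the half-site.

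The orphan receptors of the Nr2 group were listed in 23 young and 23 old cells, counting any of 7 members. Nr2f2, which encodes COUP-TFII, a factor of mesenchymal and venous cells, was listed in 13 young (15.9%, CI 8.72 to 25.6) and 6 old cells (7.69%, CI 2.88 to 16). This was the widest gap toward young cells among the 15 receptors, 8.16 points, and its intervals overlapped. In listing cells Nr2f2 ran from 1.08 to 350 FPKM with a median of 5.66 in young cells and from 2.35 to 98.2 with a median of 7.49 in old cells. Without the 22 cells whose summed FPKM exceeded 3 times the median, 13 of them young and 9 old, the difference of Nr2f2 was -10.1 points, old minus young. With every cell scaled to the same sum it was -1.63 points, at any FPKM above 0 it was -5.22, and at 5 and 10 FPKM it was -3.41 and -3.53. Nr2c2, the testicular receptor TR4, lay toward old cells, with 6 young and 9 old cells at 1 FPKM and 12 and 25 cells above 0. Its listing cells had medians of 8.36 and 13.9 FPKM. Its paralog Nr2c1 was listed in 4 young and 5 old cells. Nr2f6 was listed at 36.7 and 3.09 FPKM in 2 young cells and at 42.3, 15.4, 11.7 and 3.27 in 4 old cells. Exons of Nr2c2 and Mrps25, and of Nr2f6 and Ocel1, overlap on opposite strands in the same annotation. Nr2f1, the close relative of Nr2f2, and the neural and retinal receptors Nr2e1 and Nr2e3 were at 0 in every cell.

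Among the remaining receptors, Esrra, an orphan receptor that drives mitochondrial genes, was listed at 160, 69.6 and 1.69 FPKM in 3 young cells and at 4.25 in 1 old cell. Exons of Esrra overlap those of Trmt112 on the opposite strand. Esrrg was above 0 in 1 old cell at 0.00242 FPKM, and Esrrb was at 0. The value of Nr6a1, a germ cell receptor, cannot be given to that gene: the row listed in 7 young and 4 old cells joins Nr6a1 with Mir181a-2 and Mir181b-2, and a second row of Nr6a1 alone stayed at or below 0.00677 FPKM. Hnf4a and Hnf4g of liver and gut, Nr5a1 and Nr5a2 of steroid-making and endodermal tissues and Nr0b1 were at 0 in all cells. In all, 14 of the 38 receptors were at 0 in 160 of 160 cells; the exact interval of such a count reaches 2.28% of cells listing the gene.

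Of the 15 receptors past the 5% filter, 7 had a higher share in old and 8 in young cells, with differences from -8.16 to 10.3 points and a median of -2.66. Over all 6719 genes past that filter the median was 0.25 points. At a difference of 10 points, 1 of the 15 receptors (Nr1d1) lay toward old cells, where 4.45% of all genes did, and 0 lay toward young cells, where 6.55% did. Among the 6037 genes with no share above that of Rora, the percentages were 3.61 and 4.59. The receptors' count is thus near that of genes in general.

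Mean FPKM gave a wider spread that rested on single cells. Among 14 receptors with a mean of 1 FPKM in an age, the log2 ratio of means (old over young, 1 FPKM added to each mean) was 1 or more for Nr1d1 (1.59), Nr2c2 (1.25) and Nr3c1 (1.02), and -1 or less for Nr6a1 (-2.29, the joint row), Thra (-1.80), Esrra (-1.84), Ppard (-1.02) and Nr2f2 (-1.02). Of all 7416 genes with such a mean, 24.2% were at 1 or more and 24.3% at -1 or less, so 3 and 5 of 14 do not set the receptors apart in either direction. Without the highest cell of each age the count became 0 toward old and 1 toward young cells, the joint Nr6a1 row at -1.49. In that case Thra had a log2 ratio of -0.50, Nr3c1 of 0.20, Nr2c2 of 0.97 and Nr1d1 of 0.87. For 6 of the 15 receptors, more than 50% of the FPKM of all 160 cells came from 1 cell. Differences of mean log2(FPKM + 1), which weigh each cell alike, were small, from -0.22 for Thra to 0.31 for Nr1d1.

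Most cells listed 1 or more receptors, and cells with more listed genes listed more of them. At least 1 of the 38 was listed in 66 young (80.5%, CI 70.3 to 88.4) and 58 old cells (74.4%, CI 63.2 to 83.6). The median was 2 receptors per cell in both ages, with means of 1.85 (SD 1.31 over cells) in young and 1.74 (SD 1.54) in old cells. The most was 5 receptors in 1 young cell and 6 in 2 old cells. Cells with 0 receptors listed a median of 645 genes, and the 48 cells with 3 or more receptors a median of 1450.5. Across all 160 cells Spearman's rho between receptors and genes listed was 0.57, a description of cells that share depth and capture. Above the median gene number the mean was 2.42 receptors in 40 young and 2.55 in 40 old cells. At or below it, the mean was 1.31 in 42 young and 0.895 in 38 old cells. Each of the 15 receptors was found in cells with a higher median gene number than the cells lacking it (for Rora 1312 against 1057.5 genes). The part of gene number in the co-listing of receptors was not tested. The most frequent pair was Rora with Esr1, the 2 receptors listed most often, in 18 cells. The product of their shares gives 12.7 cells.

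**Figure D3:**
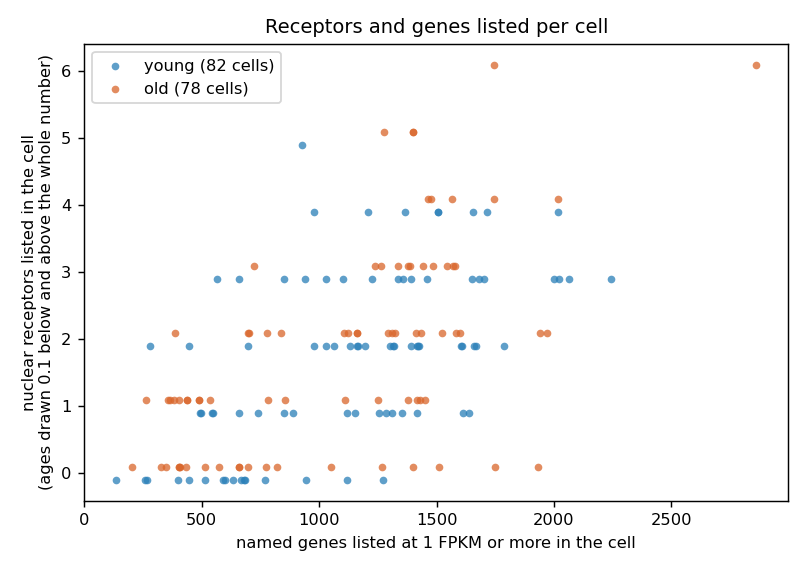
Number of the 38 receptors listed in each cell (y axis, whole numbers with the ages offset by 0.1) against the named genes listed in the same cell (x axis), for 82 young (blue) and 78 old cells (orange). Cells with 0 receptors have a median of 645 genes and cells with 3 or more a median of 1450.5.

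Among the other family receptors, Rarg, the retinoic acid receptor gamma, was listed in 20 young and 12 old cells, Nr4a1, an immediate early receptor, in 9 and 11, and Rara in 2 and 5. When Rara, Rarb, Rarg and Pparg are added to the partners, 80 cells listed a partner of the RXRs and 3 of these also listed an RXR.

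Coregulators and chaperones pass on the signals of the receptors. Ncor1, the corepressor bound by unliganded thyroid and retinoid receptors, was in 40 young (48.8%, CI 37.6 to 60.1) and 27 old cells (34.6%, CI 24.2 to 46.2). Tbl1x, an X-linked subunit of the same complex, was in 4 young and 16 old cells. Of 8 corepressor genes past the 5% filter, 2 lay 10 points or more toward old cells (4.45% of all genes did) and 1, Ncor1, toward young cells (6.55% of all genes). Ncor1 did not reach 10 points in cells with at least 50% of the median gene number or at any FPKM above 0. Of 8 coactivator genes, 0 lay toward old and 1 toward young cells: Ep300, an acetyltransferase, in 18 and 8 cells. Without cells of high summed FPKM, or with scaled cells, 1 coactivator lay toward old cells. Crebbp (24 and 20 cells) and Ncoa3 (19 and 21) were the most frequent coactivators, and Ppargc1a and Ppargc1b were listed in no cell. The chaperones that hold steroid receptors were among the most frequent: Hspa8 was in 72 and 64 cells, Ptges3, the p23 cochaperone, in 60 and 53, and Hsp90ab1 in 60 and 43. Of 11 chaperone genes 1, Stub1, lay 10 points toward old and 1, Hsp90ab1, toward young cells, and at any FPKM above 0 the number toward young cells was 6, without Hsp90ab1. The local hormone-making enzymes Dio2, Cyp27b1 and Cyp19a1 were listed in no cell.

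Known target genes of the receptors came from lists chosen together with the members. Both were chosen with earlier results of these data known, so counts over the lists are not an independent test. Of 14 PPAR target genes past the filter, 6 were listed by 10 points or more fewer old than young cells and 0 by more. Of all genes past the filter, 6.55% and 4.45% were. For every gene list, these percentages were not matched to how often its genes were listed. Txnip, which binds thioredoxin, was in 67.1% of young (CI 55.8 to 77.1) and 30.8% of old cells (CI 20.8 to 42.2). Angptl4, a secreted inhibitor of lipoprotein lipase, was in 48.8% (37.6 to 60.1) and 12.8% (6.32 to 22.3). Pdk4, which shuts glucose out of the citric acid cycle, was in 15 and 4 cells, and Fabp4, a fatty acid carrier, in 9 and 0. Pdk4 and Fabp4 were chosen after their values were seen. The count of 6 genes was 6 without cells of few genes, 6 without cells of high summed FPKM, 5 with every cell scaled to the same sum and 8 at any FPKM above 0. Acadvl lay furthest the other way, with 3 young and 7 old cells. Ppard was in 5 young and 6 old cells, and Pparg in 8 and 4.

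**Figure D4:**
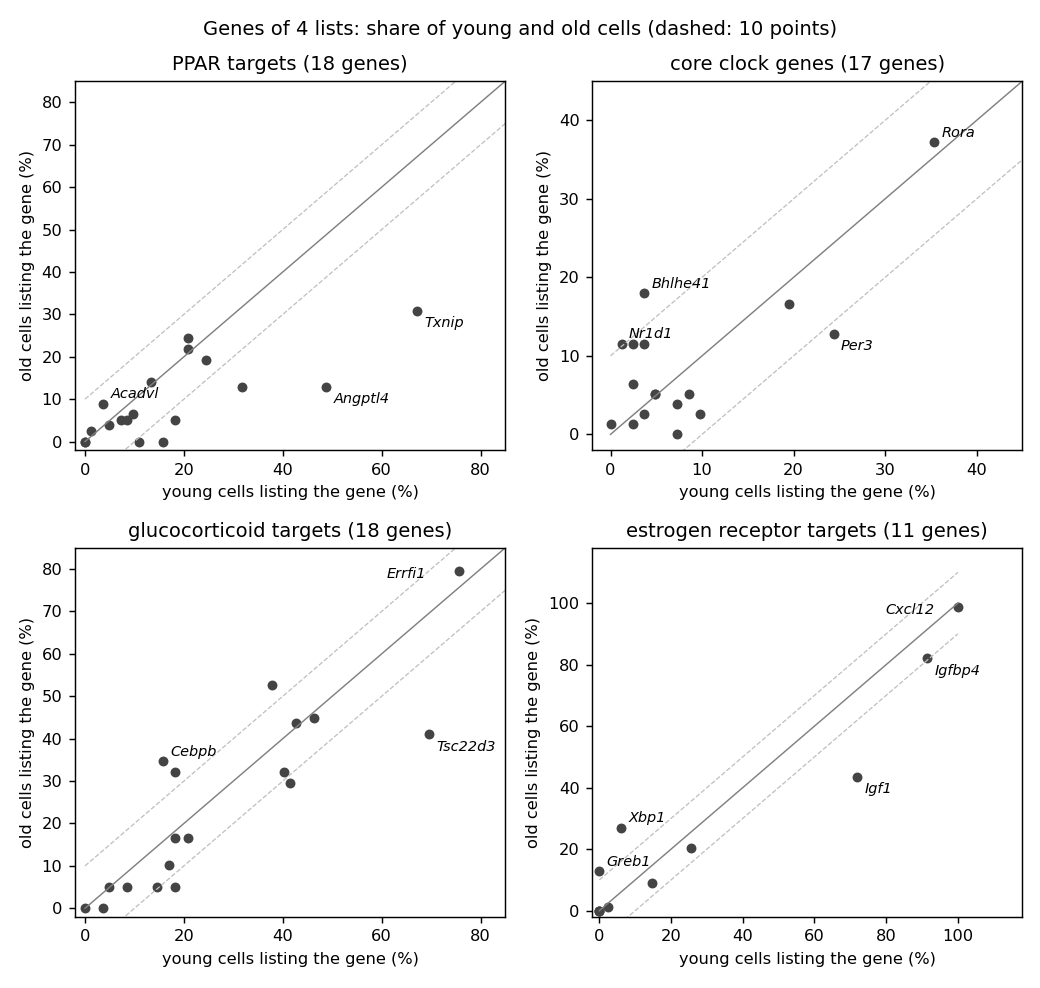
Share of young (x axis, percent) against old cells (y axis, percent) listing each gene of 4 lists, with 1 point per gene, a solid line at equal shares and dashed lines at 10 points. Txnip (67.1% and 30.8%) and Angptl4 (48.8% and 12.8%) lie below the dashed lines among PPAR targets, while Bhlhe41 and Nr1d1 lie above them and Per3 below them among clock genes.

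Glucocorticoid targets lay on both sides. Of 16 targets past the filter 3 lay 10 points or more toward old and 3 toward young cells, where 4.45% and 6.55% of all genes did. At any FPKM above 0 the numbers were 1 and 6. Tsc22d3, the glucocorticoid-induced leucine zipper, was in 69.5% of young (CI 58.4 to 79.2) and 41% of old cells (CI 30.0 to 52.7). Cebpb, a stress and adipogenic transcription factor, was in 15.9% (8.72 to 25.6) and 34.6% (24.2 to 46.2). Errfi1, a feedback inhibitor of EGF receptors, was in 62 cells of each age. Within the 15 old cells that listed Nr3c1, 4 listed Tsc22d3 (26.7%, CI 7.79 to 55.1), against 28 of the 63 others (44.4%, CI 31.9 to 57.5), and in young cells it was 11 of 14 against 46 of 68. Listing of the receptor and of this target thus did not go together in 1 direction, and the intervals overlapped.

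Of 7 estrogen receptor targets past the filter 2 lay toward old and 1 toward young cells, where 4.45% and 6.55% of all genes did. Greb1, an estrogen-induced gene of receptor complexes, was in 10 old cells (12.8%, CI 6.32 to 22.3) and in 0 of 82 young cells, a count whose exact interval reaches 4.399%. In the old cells Greb1 was in 4 of 16 that listed Esr1 and 6 of 62 that did not, with overlapping intervals (7.27 to 52.4% and 3.63 to 19.9%). For Xbp1, a factor of the secretory pathway, 5 young and 21 old cells were counted, and for Igf1 59 and 34. Here too Xist was listed in 54 old and 0 young cells, and its part was not tested. Of 5 vitamin D targets Spp1, which encodes osteopontin, was in 68 young and 25 old cells and Phex, a bone endopeptidase, in 14 and 42. With Enpp1 there were 2 toward old and 1 toward young cells, beside 4.45% and 6.55% of all genes, and the catabolic enzyme Cyp24a1, a sensitive vitamin D target, was listed in no cell.

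Clock genes other than the receptors lay on both sides. Of 14 clock genes past the filter, 3 of them receptors described above, 2 lay toward old cells, Bhlhe41 and Nr1d1, and 1 toward young cells, Per3, beside 4.45% and 6.55% of all genes. At any FPKM above 0 the numbers were 4 and 2. Bhlhe41, a bHLH repressor of the clock, was in 3 young (3.66%, CI 0.761 to 10.3) and 14 old cells (17.9%, CI 10.2 to 28.3). Per3, a period protein, was in 20 young (24.4%, CI 15.6 to 35.1) and 10 old cells (12.8%, CI 6.32 to 22.3). The sources used here do not give the time of day at which the mice were killed. LXR targets were led by Lpl, lipoprotein lipase, in 76 young and 65 old cells, and by Apoe in 67 and 54. Of 10 LXR targets 0 lay toward old and 1, Apoe, toward young cells. Apoe did not reach 10 points in cells with at least 50% of the median gene number, with scaled cells or at any FPKM above 0, and the cholesterol exporter Abca1 was in 10 cells of each age. Of 12 ERR alpha and mitochondrial targets 0 lay toward old and 1, Pdk4, toward young cells, with Cox6a1 in 38 and 34 cells and Atp5b in 27 and 27. Toward old cells there were 2, Cycs and Sdhb, in cells with at least 50% of the median gene number and at any FPKM above 0. Among thyroid hormone targets Klf9, a Kruppel-like factor, was in 38 and 35 cells and Atp2a2 in 26 and 20, and neither reached 10 points, though Klf9 did at any FPKM above 0 and Atp2a2 with scaled cells.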

How the data were processed

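Single cells were captured on Fluidigm C1 chips and their RNA amplified with SMARTer chemistry, per the labels' protocols, which kept wells seen by microscopy to hold 1 intact cell and count 83 valid young and 79 valid old wells of 96 each. No doublet caller was run. The authors deposited 1 table of FPKM values by gene and cell; Cufflinks 2.1.1 and build mm9 are named, per the submitters' processing notes. The sources used here give no aligner, annotation, filter, strand or read number, so depth is unknown and no count model was used. Of 31199 rows, 7751 had no gene name and were left out; they held a median of 46.0% of a cell's FPKM. Rows were split at commas, giving a joint value to each symbol (356 rows), and rows of 1 symbol were summed.

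Pandas 2.3.3, numpy 2.4.6 and scipy 1.17.1 were used. Shares of cells at 1 FPKM, means, log2 ratios of means (pseudocount 1) and differences of mean log2(FPKM + 1) were computed by age. Only the share differences were checked against known changes in simulated data. Shares were compared for genes listed in 5% of cells of an age, ratios for genes with a mean of 1 FPKM. Receptors past 5% are named with values and all others by name; in each gene list the 2 most frequent genes and the widest difference in each direction were named by rule, others were chosen after their values were seen. The members and lists were chosen with earlier results of these data known. Alternatives changed the listing limit, cells, scaling, pseudocount and joint rows. Some genes of the lists are not reported here.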

Additional observations from a re-analysis of the deposited data

How the results depend on the processing

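No paired analysis was possible because the cell numbers of the 2 ages are names only and each age is 1 sample. Shares of cells listing at least 1 receptor stayed within their intervals except by the listing limit: 88.5% of old cells at any FPKM above 0, 61.5% at 5 FPKM and 52.6% at 10 FPKM, and 61% of young cells at 10 FPKM. The median of 2 receptors per young cell became 4 at any FPKM above 0, and at 10 FPKM 6 receptors passed the 5% filter in place of 15. Receptors 10 points toward old cells numbered 0 at 5 FPKM, 0 at 10 FPKM, 0 with every cell scaled to the same sum and 2 in the cells between the quartiles of gene number (44 young, 36 old); at any FPKM above 0 the 1 receptor was Nr2c2, not Nr1d1. Those toward young cells numbered 1 at any FPKM above 0 (Esr1), 2 in the interquartile cells (Thra and Nr2f2) and 1 without cells of high summed FPKM (Nr2f2). Receptors with a log2 ratio of means of 1 or more numbered 5 in the interquartile cells, 5 with scaled cells, 0 at a pseudocount of 10 and 0 without the highest cell of each age. Those at -1 or less numbered 2 in cells with at least 50% of the median gene number, 3 in the interquartile cells, 9 with scaled cells, 8 at a pseudocount of 0.1, 0 at a pseudocount of 10 and 1 without the highest cells. The log2 ratio changed sign for Nr2f2 (0.038), Thra (0.55), Ppard (1.03), Esr1 (1.46), Nr1h3 (0.94) and Nr2c1 (0.35) in the interquartile cells, for Ppard (0.12) in cells with at least 50% of the median gene number, for the single-symbol row of Nr6a1 (0.00013), for Rora (-0.12) with scaled cells and for Nr1d2 without the highest cells (-0.0015) and as a difference of mean log2 values (-0.08). Fewer cells enter the interquartile set, the set with at least 50% of the median gene number and the set without the highest cell of each age. The same holds for the set without cells of high summed FPKM (69 young, 69 old). The other settings used all cells. The causes of the sign changes were not tested. For the 15 receptors past the 5% filter, both shares stayed within their intervals in 85 recomputed differences and not in 35. With sparse listing and 82 and 78 cells, a difference of a few points was not detectable.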
